A study of Mus musculus with 5 samples.

Results

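The genes described here carried a STAT3 region close to their start in mouse bone marrow derived dendritic cells that had received either SAHA or diluent. A gene belonged to a condition's set when the midpoint of a STAT3 region assigned to it lay within 5 kb of the start that the authors' region list against IgG gives for it. Of the 17024 gene symbols named in any of the 4 lists against IgG, 858 (5.04%) belonged to the diluent set and 2569 (15.1%) to the SAHA set, 3222 in all. Both sets held 205 genes (1.20% of all symbols), 653 genes were in the diluent set alone and 2364 in the SAHA set alone. One row of the SAHA list, that of Ido1, was left out: it shares its region name with another region, on chromosome X, and its strand differs from the one in the H3K4me3 list.

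The series held 5 chromatin immunoprecipitation sequencing (ChIP-seq) libraries, 1 per group. Marrow of female C57BL/6 mice, 10 weeks old, was grown for 7 days in GM-CSF and IL-4, each at 10 ng/mL, and CD11c-selected cells reached 95% purity. STAT3 and H3K4me3 (trimethylation of lysine 4 on histone H3, a mark found at active promoters) were each mapped after 12 hours in diluent or in SAHA, whose dose is labelled 500 nm. A single IgG library, from diluent cells, was the control for both conditions, and the sources used here do not give the number of mice behind a library. The STAT3 library kept 25013431 filtered tags (reads left after the peak caller's duplicate filter) in diluent and 17810183 in SAHA, and the IgG library 18925827. With 1 library per group no difference between conditions has a replicate check, so none was tested, and intervals cover counting error only.

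STAT3 is a transcription factor held latent in the cytoplasm. Cytokine receptors such as those of IL-6 and IL-10 engage Janus kinases that phosphorylate it, and it then pairs up, enters the nucleus and binds the palindrome TTCNNNGAA. In dendritic cells it is known for restraining maturation and for inducing feedback inhibitors such as SOCS3. SAHA (vorinostat) inhibits zinc-dependent histone deacetylases, enzymes that remove acetyl groups from histones and from other proteins, STAT3 among them.

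H3K4me3 at lineage genes served as a check on the labelled cell type. All 9 dendritic cell markers (Itgax, Flt3, Zbtb46, Batf3, Irf8, Irf4, Ccr7, H2-Ab1 and Cd74) had an H3K4me3 region with its midpoint within 5 kb of a listed start in diluent. In SAHA 7 of the 9 did, and Irf8 and Irf4 did not. That count goes by the midpoint, so it cannot tell a lost region from a wide one centred beyond 5 kb. The 8 macrophage and monocyte markers in the files all had a region counted this way in both libraries. So did 4 of 5 granulocyte and mast cell markers, among them Elane and Prtn3. Of T cell markers 3 of the 5 in the files had one in each library (Gata3, Cd28 and Lck), while Cd4 and Cd8b1 had none in either, and Cd3e and Cd8a are named in no list. Neither NK cell marker in the files had one, and of the 4 B cell markers 1 had one in diluent and 1 in SAHA, and none had one in both. The 2 erythroid markers in the files, Klf1 and Epor, each had one in both libraries. The part of macrophage-like or other cells in the STAT3 sets was not tested.

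The SAHA set was 2.99 times the size of the diluent set, although its library was the shallower. It came from a longer list, 8551 regions against 3507. In the tables called for each library without a control, STAT3 regions numbered 784 in SAHA and 844 in diluent. Regions within 5 kb of the start made up 32.4% of the SAHA list (2773 regions, 95% interval 31.4 to 33.4%) and 25.5% of the diluent list (894 regions, 24.1 to 26.97%). When the SAHA list was cut to its 3507 top-scoring regions, those with a score of at least 37.28, its set fell to 1305 genes (7.67%), 1.52 times the diluent set. The ratio moved with the number of regions kept, and ranged from 1.52 with equal numbers of regions to 3.4 with a score of at least 40. The score is the authors' own value for each region, which ranks regions within a list and is not comparable between lists as a level.

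The genes of both sets made up 23.9% of the diluent set (95% interval 21.1 to 26.9%) and 7.98% of the SAHA set (6.96 to 9.10%). With equal numbers of regions the shared genes numbered 120 (0.705% of symbols), 14.0% of the diluent set and 9.20% of the SAHA set. Both lists were called against the same IgG library, so they are not independent of each other. Widening the window to 50 kb gave 2187 diluent genes, 5423 SAHA genes and 824 in both, and narrowing it to 1 kb gave 415 (2.44%), 1391 (8.17%) and 75 (0.441%). Over the 14128 protein-coding symbols alone the sets held 755 (5.34%), 2254 (16.0%) and 189 (1.34%).

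**Figure D1:**
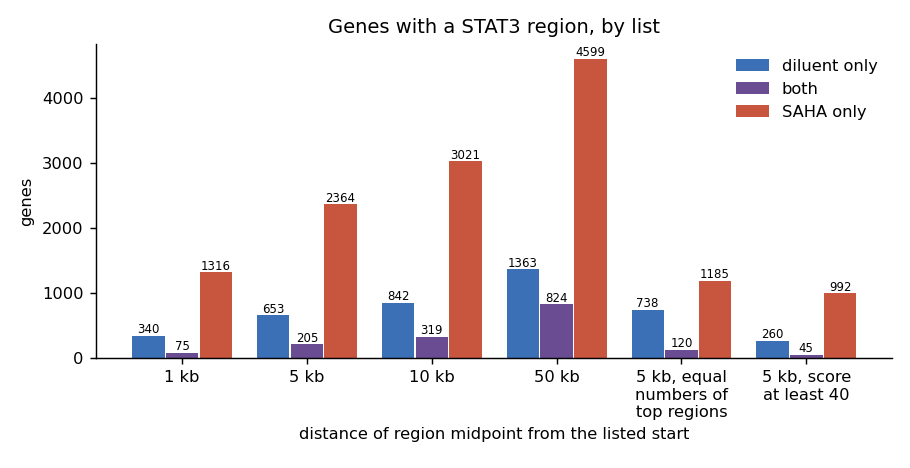
Number of genes (y axis) with a STAT3 region in the diluent list alone (blue), in both lists (purple) and in the SAHA list alone (red), for windows of 1, 5, 10 and 50 kb around the listed start, for equal numbers of top-scoring regions and for regions with a score of at least 40. The SAHA-only bar is the tallest in every setting drawn, from 4599 genes at 50 kb to 992 at the score of 40, and the purple bar is the shortest.

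Regions of both sets gathered at the start, and their sides differed. The midpoint lay a median of 966 bp from the start in SAHA and 1124 bp in diluent. It lay within 1 kb for 51.0% of the SAHA regions (49.1 to 52.9%) and 46.8% of the diluent regions (43.4 to 50.1%). Upstream midpoints made up 44.6% in SAHA (42.7 to 46.4%) and 51.9% in diluent (48.6 to 55.2%). In the 0.5 kb before the start there were 478 SAHA and 160 diluent regions, and in the 0.5 kb after it 506 and 91. SAHA regions were thus as frequent just downstream as just upstream, whereas in diluent the upstream bin held more. With equal numbers of regions the upstream share in SAHA was 43.2%, and the median distance was 696 bp. Regions within 5 kb had a median length of 673 bp in SAHA and 794.5 bp in diluent.

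**Figure D2:**
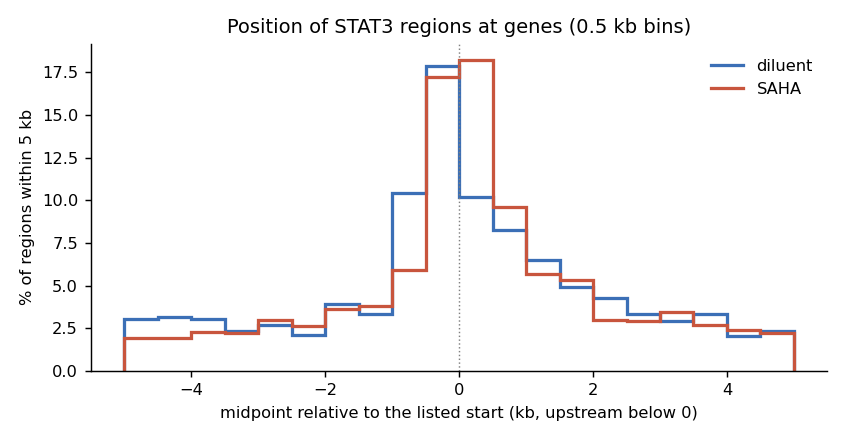
Share of the STAT3 regions within 5 kb (y axis, percent of 894 diluent and 2773 SAHA regions) by the position of the midpoint relative to the listed start (x axis, kb, upstream negative), in bins of 0.5 kb. The blue diluent line drops from 17.9% just upstream to 10.2% just downstream of the start, while the red SAHA line stands at 17.2% and 18.2%.

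Few genes carried several regions. In diluent 33 genes had at least 2 regions within 5 kb and in SAHA 189 did. With 3 regions each, Cd53 (a tetraspanin of leukocytes), Crem (a cAMP-responsive transcription factor) and Cd36 (a scavenger receptor) had the most in diluent. In SAHA 15 genes had 3 regions, among them Uvrag (an autophagy and endosome protein), Aff1 (a transcription elongation factor) and Fli1 (an ETS transcription factor). The edge of the window passed between near neighbours. In diluent Pecr at 4948.5 bp and Lin7b at 4990.5 bp were inside, and Vlgr1 at 5011 bp and Rbbp4 at 5014.5 bp were outside. In SAHA H2afb1 at 4996.5 bp and Cdk3 at 4998.5 bp were inside, and Ncoa7 at 5003 bp and Slc25a18 at 5016.5 bp were outside.

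The gene for STAT3 itself headed the shared genes, ranked by the lower of its scores in the lists. Its diluent region spanned 100800542 to 100801678 on chromosome 11 (mm9), with a score of 86.5 and a midpoint at -284.5 bp (upstream positions are negative). Its SAHA region, 100800644 to 100801609, scored 83.7 and lay at -301 bp, wholly inside the diluent region. In the tables called for each library without a control, the region held 51 tags in diluent and 37 in SAHA, which is 2.04 and 2.08 tags per 1000000 filtered tags. The log2 ratio of SAHA to diluent was 0.03 (95% interval -0.62 to 0.67, counting error only). No difference was seen at Stat3 at this depth, and the interval leaves room for one of over 1.5-fold either way. Stat3 was picked for high scores in both lists, which favours similar tags, so the ratio is a description only.

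The Stat3 promoter is shown because its region covers the start in both libraries. The RefSeq window (GRCm38.p6) runs from 250 bases before to 50 after the start, and the 250 bases before it hold no TTCNNNGAA. The stretch below has in capitals a CCAAT box read on the opposite strand (ATTGG) and GGGCGG (the core of a GC box), the former beginning 79 bases before the start. This stretch was chosen after the values were seen.
Stat3, chr11:100939564-100939659, minus strand: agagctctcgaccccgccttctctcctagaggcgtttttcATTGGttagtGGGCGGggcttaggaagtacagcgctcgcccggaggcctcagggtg

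Other shared genes with overlapping regions covered several functions. Rpl22, a protein of the large ribosomal subunit, had scores of 82.3 in diluent and 94.2 in SAHA, at -205.5 and -154.5 bp. Its single-library regions held 36 and 27 tags, 1.44 and 1.52 per 1000000 (log2 ratio 0.07, -0.70 to 0.84). Mir26b, a microRNA gene, had a region downstream of its start, at 2529.5 bp in diluent (score 130.4, the highest of the diluent set) and 1984.5 bp in SAHA (74.6). It held 88 and 58 tags, 3.52 and 3.26 per 1000000 (log2 ratio -0.11, -0.62 to 0.38). At none of these 3 genes did the tag ratio leave its counting error, and among all shared genes only 2 others, both unnamed transcripts, had regions that overlapped between these tables. These genes led the shared genes by score, which favours similar tags, and a ratio needs a region called in both tables. Rnf13 had separate regions there, with 25 tags in diluent and 22 in SAHA.

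The remaining named genes with overlapping regions had their regions over or near the start. Fkbp2 (a prolyl isomerase of the endoplasmic reticulum) scored 63.0 in diluent and 72.1 in SAHA, and Mdh1 (cytosolic malate dehydrogenase) 70.8 and 62.5. Wtap, the adaptor of the enzyme that methylates adenosine in mRNA, scored 52.0 and 52.6, and Atf7, a basic leucine zipper factor, 54.7 and 51.7. Skap2 (an adaptor of Src kinases) scored 60.9 and 44.7 at its overlapping regions, and its highest SAHA score, 50.4, was at another region, at 3372 bp. Slc44a1, a choline transporter, and Myo3b, a myosin, had theirs further upstream, at -3132 and -4763 bp in diluent and -3087 and -4516 bp in SAHA.

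Sharing a gene did not always mean sharing a region. At 101 of the 205 shared genes (49.3%, 42.2 to 56.3%) the regions overlapped by at least 1 bp, and at 84 they covered at least 50% of the shorter one. At the other 104 they were apart, with a median gap of 3006 bp. For 167 shared genes both rows gave the same start, and of the 71 such genes whose regions were apart, 39 had them on opposite sides of it. Setmar, a histone methyltransferase, had its diluent region at -1507.5 bp (score 52.0) and its SAHA region at 88 bp (71.0). Rnf13 (an endosomal ubiquitin ligase) had them at 924 and 93 bp, Plxdc2 (a plexin domain protein) at 2851 and 594 bp, and Gypc, a red cell membrane glycoprotein, at -4156 and 2249.5 bp. In each of these 4 genes both rows gave the same start, and the SAHA region was the closer to it. For Mapre2, a microtubule end binding protein, the rows gave different starts, and its regions were 1110 bp apart.

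**Figure D3:**
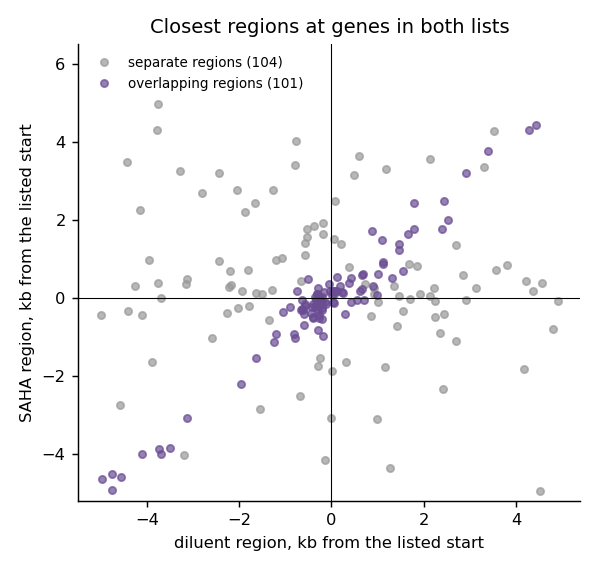
Position of the closest pair of regions at the 205 shared genes, diluent on the x axis and SAHA on the y axis, in kb from the start listed in each row. The 101 overlapping pairs (purple) lie near the diagonal, and the 104 separate pairs (grey) scatter, many with 1 region close to the start and the other away from it.

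A small core met the stricter criteria together. These genes were shared with the 5 kb window, the 1 kb window, equal numbers of regions and a score of at least 40, and their regions overlapped. They numbered 19, of which 18 have names: Arf6, Atf7, Cep110, Commd4, Dapk3, Fkbp2, Hibadh, Manbal, Mdh1, Rab10, Rpl22, Skap2, Slc37a4, Stat3, Tmem42, Trim30d, Ube2b and Wtap. They include small GTPases of membrane traffic (Arf6 and Rab10), metabolic enzymes and carriers (Mdh1, Hibadh and the glucose-6-phosphate transporter Slc37a4), a ubiquitin-conjugating enzyme (Ube2b) and the kinase Dapk3. Stat3 is the single member of the JAK-STAT list among them. The criteria are nested, since the 1 kb window lies inside the 5 kb window and a score of 40 lies above the equal-number cut of 37.28. They reuse the positions and scores of the same lists.

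Gene assignment also separated the sets. Each region is assigned to 1 gene, and 11 pairs of overlapping regions within 5 kb carried different gene names in the lists. In 3 of these pairs the names are synonyms of 1 gene: AIGP-2 and Serinc1, Casp4 and Casp11, and Flame-3 and Dedd2. Casp4 was a shared gene under its own name as well, with scores of 30.6 in diluent and 52.8 in SAHA. Other pairs were neighbours whose starts lie close together, such as Ndufa7 (a complex I subunit), named in diluent, and Rps28 (a small ribosomal subunit protein), named in SAHA. Their regions were 33961213 to 33961820 and 33960999 to 33961778 on chromosome 17. Nbr1, an autophagy receptor, and Brca1, a DNA repair factor, formed another such pair. Merging symbols through RefSeq synonyms, a setting added after seeing the data, gave 856 diluent genes, 2559 SAHA genes and 211 in both.

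Frmd5, Cd53 and Ccrl2 led the genes of the diluent set alone. Frmd5, a FERM domain protein, had a region over its start at chromosome 2, 121612343 to 121613599, with a score of 128.9, and the nearest SAHA midpoint lay 46674 bp from that start. Cd53 scored 109.9 at its highest of 3 regions, and Ccrl2, an atypical chemoattractant receptor, 91.2 at -1887.5 bp. Slfn3 (a Schlafen family member) scored 81.7 and Sos1 (an exchange factor for Ras) 81.0. Ralgds (an exchange factor for Ral) followed with 77.1 and Lilra5 (a leukocyte immunoglobulin-like receptor) with 75.4. Snupn (a nuclear import adaptor of snRNPs) and Phactr4 (a regulator of actin and protein phosphatase 1) came next, with 75.3 and 72.0. For Ralgds a SAHA region lay 7543.5 bp away, outside the window, and for the others named here the nearest lay at least 35740 bp from the start, the distance at Phactr4.

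Genes of the SAHA set alone were led by Mir715, whose region lies over an IgG region. That region spanned 39979517 to 39985931 on chromosome 17, scored 221.5 and held 4390 tags in the single-library table, at a fold enrichment of 2.70, and it is 1 of the 2 regions of the set that overlap an IgG region. Clcn7, the chloride-proton exchanger of lysosomes, followed with 142.8 at 188 bp, and Zmpste24, the protease that matures lamin A, with 140.1 at 145 bp. Baz1a, a subunit of ISWI chromatin remodellers, scored 124.8. Uvrag scored 122.6, Smek2 (a regulatory subunit of protein phosphatase 4) 122.6 and Dedd2 (a death effector domain protein) 119.6. Fubp3 (a single-stranded DNA binding protein), Pa2g4 (a growth-regulated RNA binding protein) and Cuta completed the leading 10, with 113.9, 112.8 and 112.5. Dedd2 had a diluent region 151 bp from its start, the one listed under Flame-3, and Uvrag had one at 6986 bp. For the other 8 the nearest diluent midpoint lay at least 17950 bp away.

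The promoters of Clcn7 and Cuta are shown as the leading SAHA-only genes whose region covers the start and whose RefSeq promoter (GRCm38.p6) holds the STAT palindrome TTCNNNGAA, in capitals. The match begins 141 bases before the start in 1 of the 2 Clcn7 promoters listed and 197 bases before it in Cuta. A match is a description of letters and not evidence of binding.
Clcn7, chr17:25133210-25133298, plus strand: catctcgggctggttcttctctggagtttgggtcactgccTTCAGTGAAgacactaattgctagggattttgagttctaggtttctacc
Cuta, chr17:26939607-26939695, minus strand: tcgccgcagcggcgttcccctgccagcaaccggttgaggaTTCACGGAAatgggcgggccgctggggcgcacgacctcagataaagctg

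The sets also differed in how far away the other library's nearest region lay. From the start of a diluent-only gene, the nearest SAHA midpoint was a median of 59.5 kb away, and 10.7% of the 653 genes had one within 10 kb. For the 2364 SAHA-only genes the nearest diluent midpoint was a median of 175 kb away, and 3.43% had one within 10 kb. The lists differ in length, and the part of that in these distances was not tested. In all, 27 diluent-only and 29 SAHA-only genes had a region of the other library inside 5 kb that was assigned to another gene. Junb is an example, with a diluent midpoint 2229.5 bp from its start, and so is Irf2, with a SAHA midpoint at 308 bp.

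Pathway membership was read over 28 gene lists with 719 genes in the files. Of these, 69 (9.60%) were in the diluent set and 145 (20.2%) in the SAHA set, beside 5.04% and 15.1% of all symbols, and 21 were in both. With equal numbers of regions 82 of the listed genes remained in the SAHA set, beside 7.67% of all symbols. In the counts by list that follow, a share near 5.04% in diluent or 15.1% in SAHA is that of any gene. For SAHA counts with equal numbers of regions that share is 7.67%, so members are lost from most lists by construction.

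In the JAK-STAT pathway 7 of 40 genes were in the SAHA set (17.5%, 7.34 to 32.8%) and 2 in the diluent set, near the shares of all symbols. Among receptors and kinases, Il6ra, the IL-6 receptor chain, had a SAHA region at 1663.5 bp (score 53.7), and Jak3, the kinase of common gamma chain receptors, had one at -9.5 bp (60.5). Of the inhibitors of the pathway, SAHA alone listed Socs3 (43.7), the phosphatase gene Ptpn1 (50.1) and the SUMO ligase genes Pias1 (57.2) and Pias4 (30.8). Diluent alone listed the phosphatase gene Ptpn2 (34.6 at -1401.5 bp). Stat3 was the only member in both.

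Genes known as targets of STAT3 and of cytokine response had the highest share of any list with at least 10 genes in the SAHA set. Of 33 genes, 15 (45.5%, 28.1 to 63.6%) were in the SAHA set and 6 (18.2%, 6.98 to 35.5%) in the diluent set. With equal numbers of regions 13 (39.4%) were in the SAHA set, beside 7.67% of all symbols. Ccnd1 (cyclin D1) scored 79.6 at -1722.5 bp, Junb (an AP-1 subunit) 59.7 at -2396.5 bp and Nfil3 (a leucine zipper factor of lymphoid and dendritic cell development) 58.4 at -753.5 bp, all in SAHA alone. SAHA alone also listed Icam1 (an adhesion molecule, 48.0 at 24 bp), Bcl6 (a zinc finger repressor, 46.6 at -341 bp), Sbno2 (43.0), Pim3 (43.0) and Pim1 (40.6). It further held Zfp36 (an mRNA decay factor, 40.3) and Birc5 (survivin, 31.9).

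The promoters of Icam1, Bcl6 and Socs3 are shown for the STAT palindrome TTCNNNGAA, in capitals, at target genes of the SAHA set. Icam1 was taken by the rule used for Clcn7 and Cuta, and its match begins 42 bases before the start. Bcl6 and Socs3 were chosen after the values were seen: their SAHA regions do not cover the listed start, and that of Socs3 lies at 2709 bp. Bcl6 has 3 matches, the first beginning 168 bases before the start and the last 88, and Socs3 has 1, beginning 154 bases before it.
Icam1, chr9:21015858-21015939, plus strand: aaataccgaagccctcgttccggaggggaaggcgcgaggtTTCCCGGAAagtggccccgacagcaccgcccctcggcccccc
Bcl6, chr16:23981323-23981491, minus strand: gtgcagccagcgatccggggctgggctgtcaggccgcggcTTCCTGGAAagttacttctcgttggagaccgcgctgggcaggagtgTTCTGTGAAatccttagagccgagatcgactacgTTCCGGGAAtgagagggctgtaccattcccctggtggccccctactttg
Socs3, chr11:117969472-117969560, minus strand: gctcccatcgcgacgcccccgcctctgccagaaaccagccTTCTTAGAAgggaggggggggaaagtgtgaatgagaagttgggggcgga

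Of the same list, 4 genes were in both sets and 2 in diluent alone. Nfkbiz, an inducible nuclear regulator of NF-kB targets, scored 98.5 at 44 bp in diluent. Its SAHA region (30.6) lay 16890 bp away from that one, at another listed start. Ier3, an immediate early survival gene, scored 40.5 at -298.5 bp in diluent and 60.7 at -1745.5 bp in SAHA, regions 232 bp apart. Il1rn, the IL-1 receptor antagonist, scored 32.3 in diluent and 48.1 in SAHA. Il6, the cytokine that itself activates STAT3, was in diluent alone, with a region over its start (score 63.4, midpoint -123.5 bp, 30338775 to 30340379 on chromosome 5), and the nearest SAHA midpoint lay 24903 bp away. Il10, an anti-inflammatory cytokine, was in diluent alone with a low score of 31.7 at 1337.5 bp.

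The Il6 promoter is shown, by a choice made after the values were seen, as that of a STAT3 target in the diluent set alone. It holds no TTCNNNGAA in the 250 bases before the RefSeq start (GRCm38.p6). The capitals mark an AP-1 type match, TGANTCA, that begins 249 bases before the start and a CCAAT box that begins 106 bases before it.
Il6, chr5:30012864-30013052, plus strand: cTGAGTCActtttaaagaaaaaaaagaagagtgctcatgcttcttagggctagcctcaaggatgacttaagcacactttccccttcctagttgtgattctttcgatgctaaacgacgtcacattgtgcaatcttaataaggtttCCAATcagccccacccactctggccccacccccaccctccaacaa

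**Figure D4:**
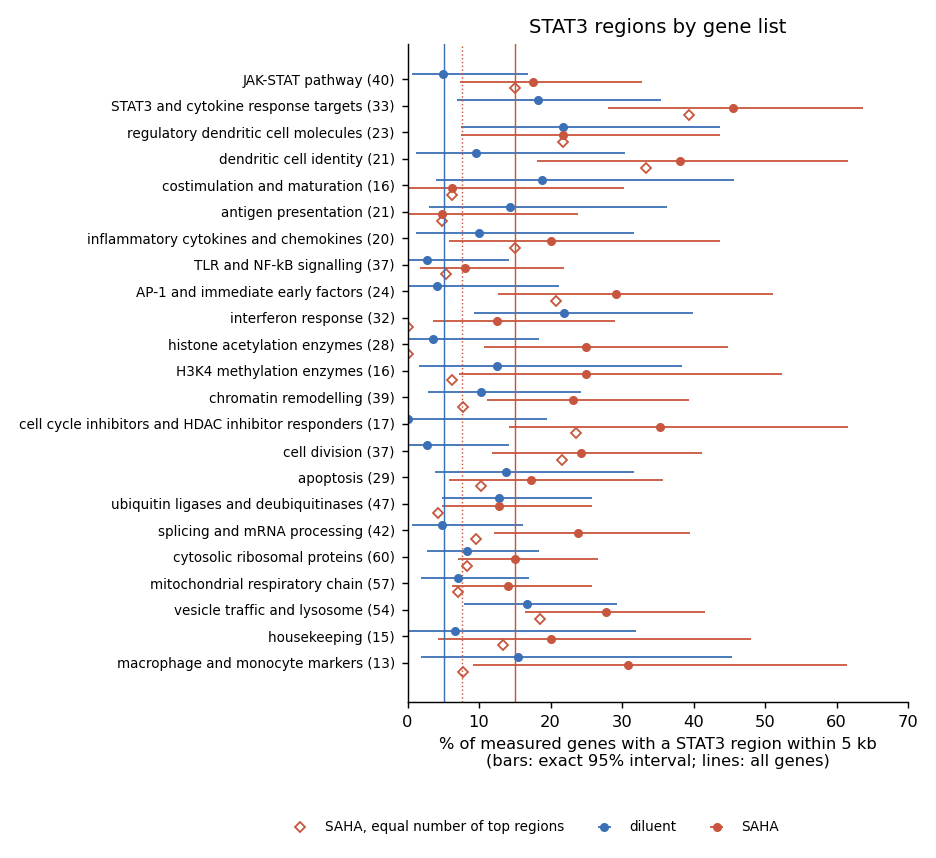
Percent of the genes of each list found in the files (x axis, number of genes in brackets) that were in the diluent set (blue) or the SAHA set (red), with exact 95% intervals, and in the SAHA set with equal numbers of regions (open diamonds). Lists with under 10 genes are not drawn. Vertical lines mark all symbols at 5.04%, 15.1% and, dotted, 7.67%. The STAT3 and cytokine response targets reach 45.5% in SAHA, and interferon response genes stand at 21.9% in diluent and 12.5% in SAHA.

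Genes of dendritic cell identity followed the STAT3 targets. Of 21 genes, 8 (38.1%, 18.1 to 61.6%) were in the SAHA set, 7 (33.3%) with equal numbers of regions, and 2 in the diluent set. Tcf4 (the plasmacytoid factor E2-2) scored 57.3 in SAHA, Relb (an NF-kB subunit needed for conventional dendritic cells) 50.7, Sirpa (an inhibitory surface receptor) 43.4 and Spi1 (the myeloid factor PU.1) 40.7 at 221 bp. Klf4 (43.3) and Runx3 (37.6) were also in SAHA alone. Runx1 was in both with overlapping regions, at 75 in diluent and 30.3 in SAHA, and Mgl2, a C-type lectin, in diluent alone at 30.3. The 9 dendritic cell markers of the H3K4me3 check held no member of either set. Among 13 macrophage and monocyte markers 2 were in diluent (Cd68 and Fcgr1) and 4 in SAHA (among them Mertk, Lyz2 and Csf1r), 1 of them (7.69%) with equal numbers of regions.

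Molecules that present antigen, costimulate or regulate T cells had counts in SAHA no higher than in diluent. Of 23 regulatory molecules 5 (21.7%, 7.46 to 43.7%) were in each set, and Il1rn was in both. Diluent alone listed Lilrb4a (an inhibitory receptor, 46.8), Arg1 (arginase 1, 39.97), Entpd1 (CD39, 33.0) and Il10, while SAHA alone listed Pdcd1lg2 (PD-L2, 57.8), Lgals9 (galectin 9, 48.3), Hmox1 (haem oxygenase 1, 44.0) and Socs3. Of 16 costimulation genes 3 (18.75%, 4.05 to 45.6%) were in diluent (Cd44, Cd83 and Slamf7) and 1 (6.25%, 0.158 to 30.2%) in SAHA (Icam1). Of 21 antigen presentation genes 3 (14.3%, 3.05 to 36.3%) were in diluent and 1 (4.76%, 0.120 to 23.8%) in SAHA. B2m (43.8) and the immunoproteasome gene Psmb8 (30.01) were in diluent alone, and H2-DMa, the peptide exchanger of class II molecules, was in both at separate regions. For costimulation and antigen presentation all these intervals include the shares of all symbols, 5.04% in diluent and 15.1% in SAHA.

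Interferon response genes had a share in diluent above that in SAHA, with intervals that overlap. Of 32 genes, 7 (21.9%, 9.28 to 39.97%) were in the diluent set and 4 (12.5%, 3.51 to 29.0%) in the SAHA set, none of these with equal numbers of regions. The guanylate binding protein genes Gbp5 (40.4 at -306 bp) and Gbp3 (40.4 at 1235 bp), the GTPase gene Ifi47 (32.5), the antiviral gene Rsad2 (31.5) and the factor gene Irf2 (30.4) were in diluent alone. Irf9, an interferon regulatory factor, was in both with overlapping regions, at 45.0 in diluent and 36.2 in SAHA. Gbp2 was in both (31.1 and 35.1), and Irgm2 and Samhd1 were in SAHA alone at 32.7 and 32.6.

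Of 20 inflammatory cytokines and chemokines 2 (10%, 1.23 to 31.7%) were in diluent (Il6 and Ccl5, 41.1) and 4 (20%, 5.73 to 43.7%) in SAHA, where Cxcl10, a chemokine for T cells, scored 55.1 at -42 bp, Il15 40.7, Tnf 40.3 and Csf1 31.9. Of 37 TLR and NF-kB signalling genes 1 was in diluent (Nfkbie, 39.7) and 3 were in SAHA (Relb, Traf3 and Map3k7). For the TLR and NF-kB list both shares, 2.70% and 8.11%, lay under those of all symbols, within intervals that include them.

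Of 24 AP-1 and immediate early factors 7 (29.2%, 12.6 to 51.1%) were in the SAHA set, 5 (20.8%) with equal numbers of regions, and 1 in the diluent set. The SAHA interval includes the 15.1% of all symbols. Maff, a small Maf factor, scored 104.6 at -269 bp, Atf4, the factor of the integrated stress response, 61.7 at -94 bp, and Egr1, a zinc finger factor, 59.3 at -936.5 bp, all in SAHA alone. Nr4a3 (45.3) and Nr4a2 (36.1), orphan nuclear receptors, were in SAHA alone too, and Egr3 was in both at separate regions.

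Of 37 cell division genes 9 (24.3%, 11.8 to 41.2%) were in the SAHA set, 8 (21.6%) with equal numbers of regions. Next to Ccnd1 they included Ccnd2 (cyclin D2, 71.4), Cdk4 (its kinase, 68.0) and Ccna2 (cyclin A2, 55.9). In diluent only Plk1, a mitotic kinase, was listed (36.1). Among cell cycle inhibitors and genes known to respond to deacetylase inhibitors, 6 of 17 (35.3%, 14.2 to 61.7%) were in the SAHA set and none in the diluent set, for which counting error allows up to 19.5%. Cdkn1a, the p21 inhibitor often used as a marker of deacetylase inhibition, scored 76.2 at 1487 bp, Gadd45b 51.0 at -275 bp and Cdkn1b (p27) 45.0 at 480.5 bp. With equal numbers of regions 4 of the 6 remained, 23.5% of the list. The SAHA intervals of both lists include the 15.1% of all symbols. Cell cycle inhibitors and cyclins were both among the SAHA-only genes.

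Of 28 histone acetylation enzymes and their corepressors, 7 (25%, 10.7 to 44.9%) were in the SAHA set and 1 in diluent. None of the 7 remained with equal numbers of regions, where 7.67% of all symbols did. Hdac3 (32.0 at -12 bp), Hdac7 (32.6) and Hdac4 (30.2), which encode deacetylases, and the corepressor gene Ncor1 (30.2) were in SAHA alone. Kat6b, an acetyltransferase gene, scored 37.2, and Rcor1 was in both at 40.6 in diluent and 37.1 in SAHA. Of 39 chromatin remodelling genes 9 were in SAHA and 4 in diluent, 3 of the SAHA genes (7.69%) with equal numbers of regions: Baz1a, Tet2 and Arid1a. Of 16 H3K4 methylation enzymes 4 were in SAHA, led by Ash2l at 42.5, and 2 in diluent, led by the demethylase gene Kdm5c at 45.9.

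Core cell functions were present in both sets. Of 54 vesicle traffic and lysosome genes 15 (27.8%, 16.5 to 41.6%) were in SAHA and 9 (16.7%, 7.92 to 29.3%) in diluent, each above the share of all symbols. Beside Clcn7, SAHA alone listed Vps11 (52.6), Ctsd (cathepsin D, 49.6) and Atp6v0d1 (47.6). Diluent alone listed the early endosome GTPase genes Rab5a (44.4) and Rab5b (41.8), and Rab7 (33.2). Rab10, Rab14 and Atp6v0a1 were in both. Of 42 splicing genes 10 were in SAHA (Hnrnph1 leading at 74.0) and 2 in diluent, 4 of the SAHA genes (9.52%) with equal numbers of regions. Of 60 cytosolic ribosomal protein genes 9 (15.0%) were in SAHA and 5 (8.33%) in diluent, and of 57 respiratory chain genes 8 (14.0%) and 4 (7.02%), led by Cox7a2 (72.7) in SAHA. Apoptosis genes numbered 5 and 4 of 29, and ubiquitin ligases and deubiquitinases 6 and 6 of 47. The Bcl2a1 genes of the apoptosis list (Bcl2a1a, Bcl2a1b and Bcl2a1d) are near-identical copies, so which of them a region belongs to is uncertain.

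Members were mostly genes whose start carries H3K4me3, which the choice of members did not use. The symbols counted come in part from the H3K4me3 lists, so the shares of genes in neither set and of all symbols depend on how symbols were gathered. H3K4me3 was read at any start listed for a gene, and STAT3 at the start in the region's own row. Of the 205 shared genes, 97.1% (93.7 to 98.9%) had an H3K4me3 region with its midpoint within 5 kb in diluent and 97.6% in SAHA. Of the diluent-only genes 83.6% and 83.9% did, of the SAHA-only genes 85.9% and 86.7%, and of the genes in neither set 77.2% and 78.2%. Of all symbols 78.9% had one in diluent and 79.9% in SAHA. Restricting the sets to the 13200 genes with H3K4me3 in both libraries left 739 diluent genes (5.60%), 2214 SAHA genes (16.8%) and 199 in both (1.51%).

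The H3K4me3 signal itself differed little between the libraries in any class. At 11198 genes with 1 region in each library, the median log2 ratio of SAHA to diluent tags, scaled to filtered tags, was -0.04. It was -0.06 for 166 shared genes, -0.05 for 439 diluent-only genes and -0.04 for 1682 SAHA-only genes. Per kb of called region the medians were -0.13, -0.15 and -0.13, beside -0.12 for all genes. A ratio of at least 2-fold in favour of SAHA was seen at 36 SAHA-only, 12 diluent-only and 2 shared genes, and at 2.59% of all genes. A ratio of at least 2-fold in favour of diluent was seen at 4, 2 and 0, and at 0.589% of all.

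Single genes at the ends of the range of tags per kb are given with their tags, the log2 ratio of tags with its counting interval, and the log2 ratio per kb of called region. Trfr2, the second transferrin receptor, had 35 H3K4me3 tags in diluent and 248 in SAHA (2.89, 2.38 to 3.44), which is 1.38 per kb. Cyp27b1, which activates vitamin D, had 41 and 163 (2.06, 1.55 to 2.59), or 1.28 per kb. Both were in the SAHA set alone. Ccl6, a chemokine gene of the diluent set alone, had 318 and 875 (1.53, 1.34 to 1.72), or 1.13 per kb. Mmp8, the neutrophil collagenase and a shared gene, had 183 and 612 (1.81, 1.57 to 2.05), or 0.64 per kb. The called regions of these 4 genes were wider in SAHA. The shared gene Cic had 2752 and 1430 (-0.88, -0.97 to -0.79), but 0.70 per kb, over a region narrower in SAHA. In the other direction per kb, SAHA-only genes reached lower values than those of the diluent set. Pip5k1c had 1469 and 2121 tags (0.60, 0.50 to 0.69), or -0.97 per kb. Tax1bp1 and Kbtbd7 stood at -0.97 and -0.96 per kb, and the regions of these SAHA-only genes were wider in SAHA. Gata3 of the diluent set had 573 and 297 (-0.88, -1.09 to -0.68), or -0.72 per kb. Aif1, a myeloid actin-binding protein of the same set, had 383 and 205 (-0.84, -1.09 to -0.59), with the same value per kb. At Stat3 the tags were 2581 and 2676 (0.12, 0.04 to 0.20) over a region that was wider in SAHA, which is -0.66 per kb.

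**Figure D5:**
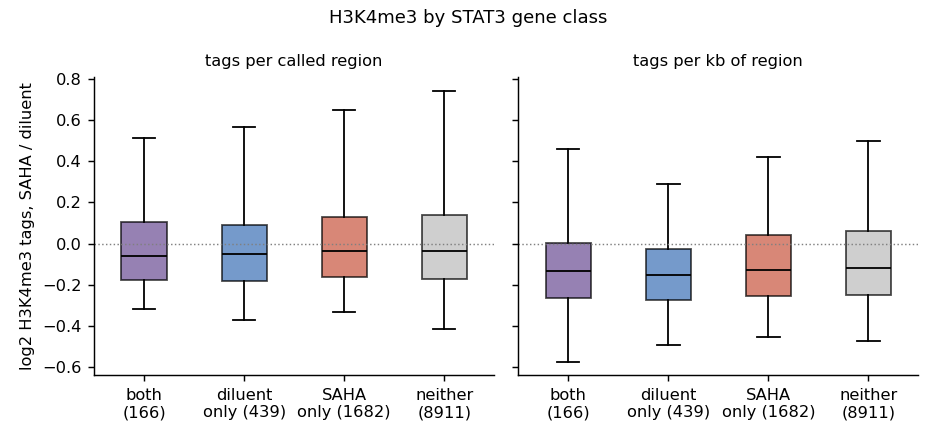
Log2 ratio of H3K4me3 tags in SAHA over diluent (y axis) for genes of each STAT3 class, per called region on the left and per kb of region on the right. Boxes show quartiles with the median, whiskers the 5th and 95th percentiles, and brackets the number of genes; the medians lie between -0.06 and -0.04 on the left and between -0.15 and -0.12 on the right.

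The STAT palindrome was found in a minority of members' promoters in each class. In the RefSeq windows of 300 bases, TTCNNNGAA (identical on both strands) occurred in 3.69% of 244 promoters of shared genes (1.70 to 6.89%), 9.08% of 617 of diluent-only genes (6.93 to 11.6%) and 6.82% of 2243 of SAHA-only genes (5.81 to 7.94%). It occurred in 6.93% of 10637 promoters of genes with an H3K4me3 ratio and in 8.30% of all 32851. With the 1 kb window the shares were 2.04%, 10.6% and 7.63%. The stricter TTCCNGGAA, which TTCNNNGAA includes, occurred in 0.410%, 1.30% and 1.16% of the classes in the same order and in 1.15% of all. These windows reach 250 bases upstream only, and many regions lie outside them.

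Other motifs and the CpG content were read in the same windows. GGGCGG, on either strand, occurred in 58.6% of promoters of shared genes, 52.5% of diluent-only (48.5 to 56.5%) and 62.3% of SAHA-only genes (60.3 to 64.3%), beside 62.2% with an H3K4me3 ratio (61.3 to 63.1%) and 35.7% of all. The diluent-only share thus lay under that of genes with an H3K4me3 ratio, with intervals that do not overlap. CCAAT occurred in 43.0%, 37.4% and 35.5%, beside 37.1% with an H3K4me3 ratio and 37.4% of all. TGANTCA occurred in 6.97%, 7.46% (5.51 to 9.82%) and 4.86% (4.01 to 5.83%), beside 5.35% with an H3K4me3 ratio and 7.81% of all, and GAGGAAGT (the letters of an ETS site bound by PU.1) in 2.87%, 4.21% and 3.43%, beside 3.32% and 3.20%. The median ratio of observed to expected CpG was 0.734, 0.730 and 0.739, beside 0.741 for promoters with an H3K4me3 ratio and 0.384 for all.

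Most members had no region in the tables called without a control. In diluent 81 member genes and in SAHA 116 had a region that was also called there. Those tables held 844 STAT3 regions in diluent, of which 45.4% overlapped an IgG region, and 784 in SAHA, of which 51.4% did. On the X chromosome 2.57% of 545 genes were in the diluent set and 6.24% in the SAHA set, both under the shares of all symbols.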

How the data were processed

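STAT3 and H3K4me3 in diluent and SAHA, and IgG in diluent, had 1 library each. Per the submitters' processing notes, BWA aligned the reads, and mm9 was the genome. Per the file headers, MACS 1.4.0rc2 called each library alone (p-value limit 1e-05), and these deposited tables give tag counts and a fold enrichment (a ratio over local background). The authors' deposited lists against IgG give each region a score and 1 gene; the sources used here do not say how they were called.

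Distances ran from the region midpoint to the start in the same row. The members, gene lists and tests were chosen with earlier results of these data known. Genes were counted over all 17024 symbols, of which 87.1% matched RefSeq (GRCm38.p6, used for names and promoters only). Symbols turned into dates were restored (6 in diluent, 13 in SAHA), and 60 symbols occurred on several chromosomes. Named genes were, by score, the first 10 shared genes with overlapping regions and 5 without, the first 10 of each other class, up to 4 members per list and class, the genes nearest the window's edge, those with most regions, and the 3 highest and lowest H3K4me3 ratios per kb per class with at least 100 tags; predicted and unnamed symbols were passed over, and other names were chosen after their values were seen. Some genes that the rule names are not reported here. Promoters were printed for at most 3 named genes per class, by score, whose region covers the start with a TTCNNNGAA upstream (Sbno2 and Zfp36 also qualified and are not printed), and otherwise as stated. Shares have exact Clopper-Pearson 95% intervals, and tag ratios exact conditional binomial ones. Python 3.11.15, pandas 2.3.3, numpy 2.4.6 and scipy 1.17.1 were used. On simulated counts for 21342 H3K4me3 regions, 194 of 200 regions raised 2-fold were recovered, and 95.5% of intervals covered the true ratio. The counts were drawn with the counting error that the intervals assume. They check the calculation only, and hold no variation between libraries or in region width. Alternatives were windows of 1, 10 and 50 kb, equal numbers of regions, a score of at least 40, regions over IgG left out, any listed start, any base of the region, protein-coding symbols, and 2 added after seeing the data: genes with H3K4me3 in both libraries and merged synonyms.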

Additional observations from a re-analysis of the deposited data

How the results depend on the processing

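The SAHA set was the larger in every setting tried, and all settings use the lists against IgG. The tables called without a control held 784 STAT3 regions in SAHA and 844 in diluent. Of the member genes, 116 in SAHA and 81 in diluent had a region there. With a 1 kb window the sets held 415 diluent, 1391 SAHA and 75 shared genes, with 50 kb 2187, 5423 and 824, and with a score of at least 40 they held 305, 1037 and 45. With 10 kb the shared genes numbered 319. With equal numbers of top-scoring regions there were 1305 SAHA and 120 shared genes, and the ratio of SAHA to diluent genes was 1.52 against 2.99. Of the listed genes, 36 diluent and 79 SAHA genes remained with 1 kb, and 82 SAHA genes with equal numbers. Windows and score limits change these counts by their construction. Leaving out regions over IgG, using any listed start, any base of the region, protein-coding symbols, genes with H3K4me3 or merged synonyms moved no set by more than 1.5 times.

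No paired analysis was possible because each group had 1 library. Depth limits the tag ratios at STAT3 regions, which rest on 19 to 88 tags per library. The library depth, the IgG library from diluent cells alone and the score limit differ or act together with the condition, and cannot be told apart from it here.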
